A study of Mus musculus with 10 samples.

Results

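The Schlafen genes are a family of mouse genes named from the German word for sleep, and they were taken here by name: Slfn1, Slfn2, Slfn3, Slfn4, Slfn5, Slfn8, Slfn9 and Slfn14. A gene's value is the mean log2 value of the array probe sets that name that gene and no other. Of the 8 listed genes, 7 had such a probe set, 1 each, among 22180 genes measured. Slfn9 had none and is represented only by a probe set that it shares with Slfn8. The family was chosen by its log2 values in chlorine-exposed against unexposed mice. Its members' differences are therefore given as a description, with no p-value and not as support for anything. The same holds for their calls by the fit over all genes, and for how these calls stand with mice left out or under other settings.

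The tissue came from the trachea of 10 male FVB/NJ mice aged 9 weeks, with no transgene, deletion or other agent named in the labels. The 5 exposed mice had been in 235 ppm chlorine gas for 1 hr and were sampled 4 days later, and the 5 unexposed mice had no treatment. From stained frozen sections, connective tissue beneath the epithelium was cut out with a laser and pooled per mouse, and each mouse gave 1 microarray. The mice are separate animals, and the number of arrays limits the precision.

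Schlafen proteins share an N-terminal core, and the family is sorted by length. Slfn1 and Slfn2 are short, Slfn3 and Slfn4 are intermediate, and Slfn5, Slfn8, Slfn9 and Slfn14 are long, with a helicase-like part at the C terminus. Many members are induced by interferon and by bacterial products in myeloid cells, Slfn1 and Slfn2 are known for holding T cells at rest, and several family proteins bind or cut transfer RNA. In mice nearly all of the family sits in a single cluster, here on chromosome 11.

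The sequences just before the transcription starts were compared between the members. RefSeq's promoter table for GRCm38.p6 matched all 8 listed genes, and the 250 bases before each gene's first listed start were searched on both strands. Other starts were not searched. The RefSeq gene table begins Slfn5 at 82951349, so the bases searched for Slfn5, 82951852 to 82952101, lie inside the gene by that table. Those searched for Slfn4, 83174936 to 83175185, run past its beginning there at 83175172. A run of 11 letters, ACTTCCTGGAG, stood in the same orientation before Slfn1, Slfn2 and Slfn4, the pair of short genes and an intermediate gene. It was noticed by comparing the members and taken as the longest run common to these 3, so its presence in them was fixed in advance. Over the whole 250 bases, pairs of the 3 were identical at only 47.0 to 51.0% of aligned positions. Slfn2 and Slfn3 also shared a different run of 11 letters. ACTTCCTGGAG was held on either strand by 19 of 27025 promoters (0.0703%), those of Slfn1, Slfn2 and Slfn4 included, and nothing is read from that share. It contains CTTCCT, the letters recognised by ETS-family transcription factors, which 29.2% of all promoters held. In Slfn1 the run covered bases 74 to 64 before the start and in Slfn4 bases 73 to 63, where the shared stretch extended to 15 letters. In Slfn2 it covered bases 55 to 45. CTTCCT was in 6 of the 8 members, Slfn9 and Slfn14 included, so it was not particular to the 3 genes with the run. Slfn14 also shared the 9 letters TTCCTGGAG with Slfn1 and Slfn4, and 10 letters with Slfn2. Slfn3 held CTTCCT on both strands but not the whole run. In the 60 bases printed around it, capitals mark the run (plus strand, 5′ to 3′, chr11:83116721-83116780 for Slfn1, chr11:83065032-83065091 for Slfn2 and chr11:83175088-83175147 for Slfn4).
Slfn1: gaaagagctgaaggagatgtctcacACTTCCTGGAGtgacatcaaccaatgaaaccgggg
Slfn2: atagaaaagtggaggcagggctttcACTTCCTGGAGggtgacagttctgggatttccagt
Slfn4: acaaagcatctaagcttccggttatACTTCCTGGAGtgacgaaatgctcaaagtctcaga

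The long genes Slfn5, Slfn8 and Slfn9 held a different motif, GAAANNGAAA, the core of the interferon-stimulated response element that interferon regulatory factors bind. It was found in 3 of the 8 Schlafen promoters and in 821 of 27025 promoters (3.04%), and it did not overlap the 11-letter run in any member. Among 23 promoters of interferon response genes, a list given below, 8 held it. In Slfn8 it lay 48 to 39 bases and in Slfn9 45 to 36 bases before the start, on the opposite strand and so printed as its complement. In Slfn5 it lay 155 to 146 bases before the start listed for promoters, which is inside the gene by the RefSeq gene table. TTCNNNGAA, the site of STAT dimers, was in none of the 8 windows and in 7.18% of all. The 250 bases of Slfn8 and Slfn9 were identical at 80.2% of aligned positions, while every other pair of members reached at most 53.4%. Capitals mark the motif in the 60 bases printed, read 5′ to 3′ along each gene (plus strand chr11:82951922-82951981 for Slfn5, minus strand chr11:83020824-83020883 for Slfn8 and chr11:82991841-82991900 for Slfn9). A match describes the letters and is not a measured binding site.
Slfn5: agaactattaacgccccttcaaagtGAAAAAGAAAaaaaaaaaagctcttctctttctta
Slfn8: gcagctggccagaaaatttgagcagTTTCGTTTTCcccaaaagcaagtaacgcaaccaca
Slfn9: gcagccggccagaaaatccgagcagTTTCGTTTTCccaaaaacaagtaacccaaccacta

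At 4 days after chlorine, Slfn1, Slfn2, Slfn4, Slfn5 and Slfn8 stood higher in exposed mice, Slfn3 less clearly so, and Slfn14 did not stand higher. In the limma fit over all genes, 5 of the 7 measured members were called higher at an adjusted p under 0.05 and 0 lower, against 5.85% of all genes called higher and 4.97% called lower. The groups did not overlap, with every exposed mouse above every unexposed mouse, for 4 of the 7 members and for 5.89% of all genes; the reverse held for 0 members and for 5.06% of all genes. A difference of at least 2-fold was seen for 3 of the 7 members and for 1.94% of all genes. The median log2 difference was 0.97 over the 7 members and -0.0035 over all genes. Nothing is read from these shares, since the family was chosen with this contrast known. More cells of a type and more RNA per cell cannot be told apart in tissue of this kind.

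Slfn1, a short member whose forced expression slows the growth of T cells, showed the largest difference of the family. In exposed mice 1 to 5 its log2 value was 7.25, 7.48, 7.38, 7.39 and 7.45, and in unexposed mice 1 to 5 it was 5.16, 5.88, 5.55, 5.32 and 5.67. The exposed mice lay within 0.23 log2 units of each other, and the lowest of them was 1.37 above the highest unexposed mouse. The means were 7.39 ± 0.09 and 5.51 ± 0.28 (SD, n = 5 each), a log2 difference of 1.87 (SE 0.13) or 3.66-fold. That difference ranked 107 from the top among all 22180 genes.

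Slfn2, the other short member, is the gene mutated in elektra mice, whose T cells cannot stay at rest. Its log2 value was 7.35, 8.21, 8.01, 7.73 and 7.95 in exposed mice 1 to 5 and 7.17, 7.08, 7.01, 6.83 and 6.30 in unexposed mice 1 to 5. The groups did not overlap, although exposed mouse 1 lay only 0.18 above unexposed mouse 1. The means were 7.85 ± 0.33 and 6.88 ± 0.35 (SD, n = 5 each), a log2 difference of 0.97 (SE 0.19) or 1.96-fold.

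Slfn4, an intermediate member known from macrophages and other myeloid cells, where interferon and Toll-like receptor ligands induce it, was higher in 4 of the 5 exposed mice. Its log2 value was 4.56, 5.73, 5.77, 5.79 and 5.37 in exposed mice 1 to 5 and 4.11, 4.59, 4.35, 4.66 and 4.67 in unexposed mice 1 to 5. Exposed mouse 1 fell inside the unexposed range and the other 4 lay above all of it. The log2 difference of the means was 0.97 (SE 0.23) or 1.96-fold, from 4.48 ± 0.24 to 5.44 ± 0.52 (SD, n = 5 each). Slfn4 was no longer called when unexposed mouse 1, the lowest of its group, was left out, with a log2 difference of 0.88. All 5 unexposed values and that of exposed mouse 1 lay below the array medians of 5.10 to 5.18, and whether they were above background is not known.

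Slfn3, the other intermediate member and a close relative of Slfn4, was more scattered. Its log2 value was 3.52, 5.30, 4.62, 3.97 and 4.43 in exposed mice 1 to 5 and 3.88, 3.30, 4.17, 3.24 and 3.60 in unexposed mice 1 to 5. Exposed mice 1 and 4 lay within the unexposed range, and exposed mice 2, 3 and 5 lay above it. The log2 difference of 0.73 (SE 0.30) was not called, but at 0.94 it was called when exposed mouse 1 was left out. The number of members called higher was therefore 6 without exposed mouse 1 and 4 without unexposed mouse 1, and it was 5 without exposed mice 1 and 3 together, a pair left out after the data were seen.

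**Figure D1:**
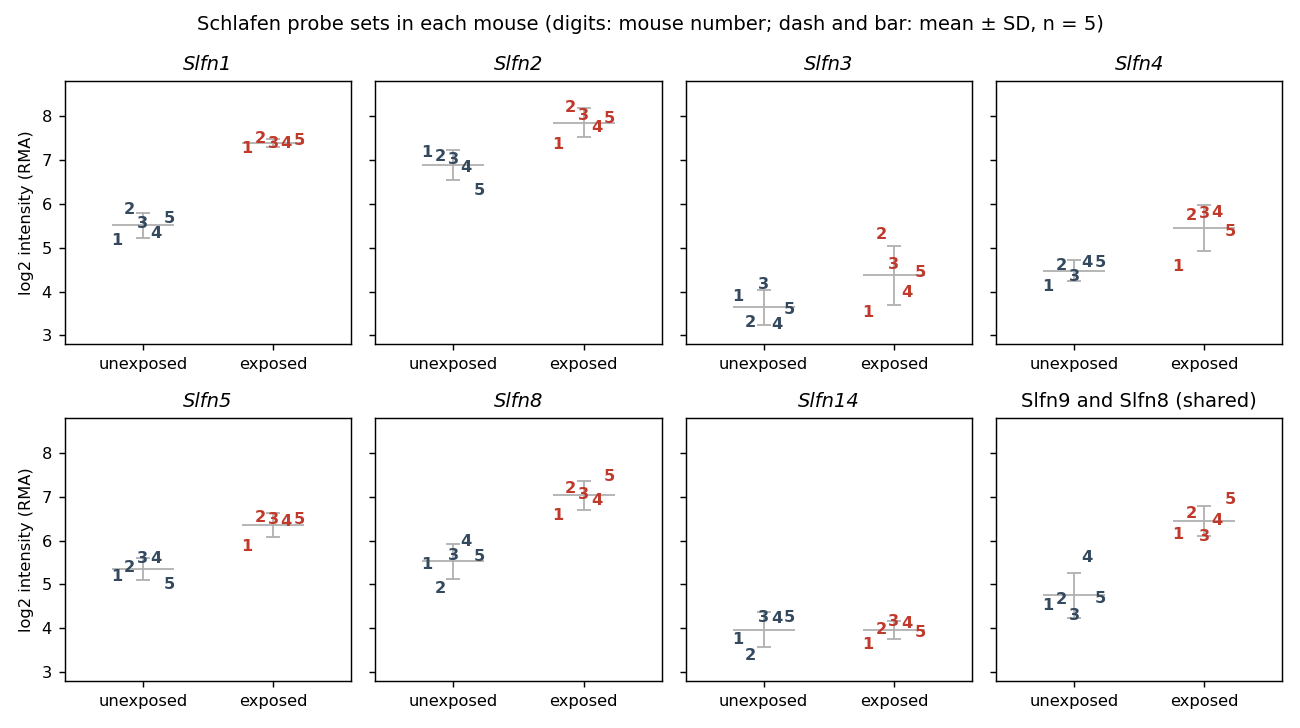
Log2 intensity of each Schlafen probe set (vertical axis) in unexposed and chlorine-exposed mice, with each digit standing for the mouse of that number and the grey dash and bar for the group mean ± SD (n = 5); the last panel is the probe set shared by Slfn9 and Slfn8. Slfn1, Slfn2, Slfn5, Slfn8 and the shared probe set show no overlap between the groups, and Slfn3, Slfn4 and Slfn14 do; levels of different panels are from different probes and are not to be compared.

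Among the long members, Slfn8 showed the largest difference. Its log2 value was 6.57, 7.18, 7.04, 6.92 and 7.47 in exposed mice 1 to 5 and 5.45, 4.91, 5.66, 5.97 and 5.63 in unexposed mice 1 to 5. The groups were 0.60 apart at their nearest points, exposed mouse 1 and unexposed mouse 4. The means were 7.04 ± 0.33 and 5.52 ± 0.39 (SD, n = 5 each), a log2 difference of 1.51 (SE 0.20) or 2.86-fold.

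Slfn9, a long member next to Slfn8 in the cluster, could be seen only through the probe set that names both genes. That probe set held 6.08 to 6.94 in exposed mice and 4.28 to 5.62 in unexposed mice, without overlap, with means of 6.44 ± 0.35 and 4.75 ± 0.51 (SD, n = 5 each). Apart from 5.62 in mouse 4, its unexposed values lay below the array medians of 5.10 to 5.18, and whether they were above background is not known. The log2 difference of this probe set was 1.69, or 3.24-fold. How much of it belongs to Slfn9 was not tested, and array probes may not fully separate close relatives such as Slfn8 and Slfn9 or Slfn3 and Slfn4, so their single values are uncertain.

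Slfn5, a long member induced by type I interferon, differed by close to the same amount in 4 of the 5 exposed mice. Its log2 value was 5.87, 6.52, 6.49, 6.44 and 6.47 in exposed mice 1 to 5 and 5.17, 5.39, 5.58, 5.59 and 5.01 in unexposed mice 1 to 5. Exposed mouse 1 stood apart from the rest of its group but still 0.28 above the highest unexposed mouse. The means were 6.36 ± 0.27 and 5.35 ± 0.26 (SD, n = 5 each), a log2 difference of 1.01 (SE 0.16) or 2.01-fold. A further probe set, which names Slfn5 together with Slfn5os, a long non-coding RNA gene that overlaps it, held 5.40 to 5.76 after exposure against 5.40 to 6.04 without it, a log2 difference of -0.0052. The probe sets naming Slfn5 thus differed in what they showed, and which transcript the shared probe set reads was not tested.

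Slfn14, a long member with RNA-cutting activity known from red cell precursors and platelets, was the member without a difference of note. Its log2 value was 3.62, 3.98, 4.16, 4.12 and 3.91 in exposed mice 1 to 5 and 3.75, 3.37, 4.25, 4.22 and 4.25 in unexposed mice 1 to 5. The groups overlapped throughout, and the log2 difference of -0.0064 (SE 0.18) changed sign with array centring (0.024) and with quantile normalization (0.019). All 10 values lay below the array medians of 5.10 to 5.18. With no scanner files used here, it is not known whether this probe set was above background in any mouse, and the same holds for Slfn3.

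The Schlafen cluster lies on chromosome 11 in the order Slfn5, Slfn9, Slfn8, Slfn10-ps, Slfn2, Slfn1, Slfn4, Slfn3 and Slfn14, by the RefSeq gene table. Among the genes of the family, the 5 called members fill the run from Slfn5 to Slfn4 apart from Slfn9, which was not measured alone, and Slfn10-ps, a pseudogene. Slfn10-ps differed by 0.29 (SE 0.18) and did not pass (limma adjusted p = 0.373). Also measured inside the cluster, and not called, were the long non-coding RNA genes Gm20234, which overlaps Slfn2 (0.27, limma adjusted p = 0.521), and AI662270 (0.35, limma adjusted p = 0.266). Of the 3 named protein-coding genes on either side of the cluster, 5 were measured and none was called: Fndc8 (-0.23), Nle1 (0.27), Unc45b (0.0011), Ap2b1 (-0.010) and Rasl10b (0.092), with limma adjusted p between 0.220 and 0.997. The signs of Unc45b, Ap2b1 and Rasl10b turned under some alternatives. Slfnl1, a Schlafen-like gene on another chromosome, differed by -0.0081 (SE 0.15, limma adjusted p = 0.984), also with a sign that turned.

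**Figure D2:**
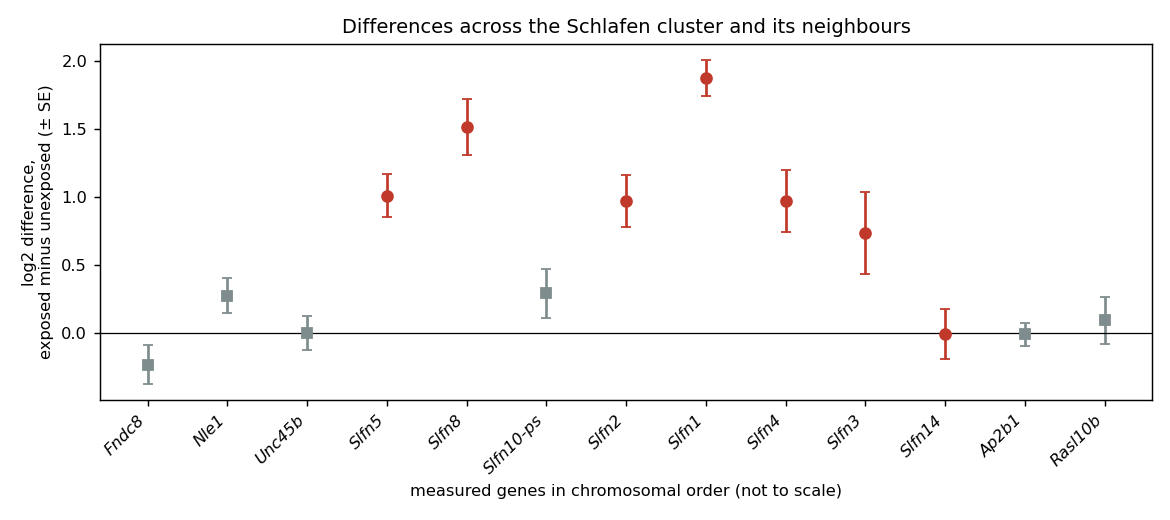
Log2 difference between exposed and unexposed mice (vertical axis, ± SE, n = 5 per group) for the measured Schlafen genes of the cluster and its neighbours in chromosomal order (horizontal axis, not to scale). Round points are members of the family and squares are other genes. The non-coding genes Gm20234 and AI662270 inside the cluster are not drawn. The 6 members from Slfn5 to Slfn3 lie between 0.73 and 1.87, while Slfn14, Slfn10-ps and the 5 neighbours lie between -0.23 and 0.29.

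The exposed mice differed among themselves in a repeated order. Exposed mouse 1 was the lowest of the exposed mice for all 7 members, and exposed mouse 2 was the highest for 4 of them. Among the 1298 genes called higher over the whole array, exposed mouse 1 was the lowest of its group for 46.0%, so that this place was common beyond the Schlafen genes. The width of the exposed range ran from 0.23 log2 units for Slfn1 to 1.78 for Slfn3. Slfn1 was thus the member on which exposed mouse 1 stood closest to the other exposed mice, at 1.74 above the unexposed mean against 0.087 for Slfn4 and -0.11 for Slfn3.

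**Figure D3:**
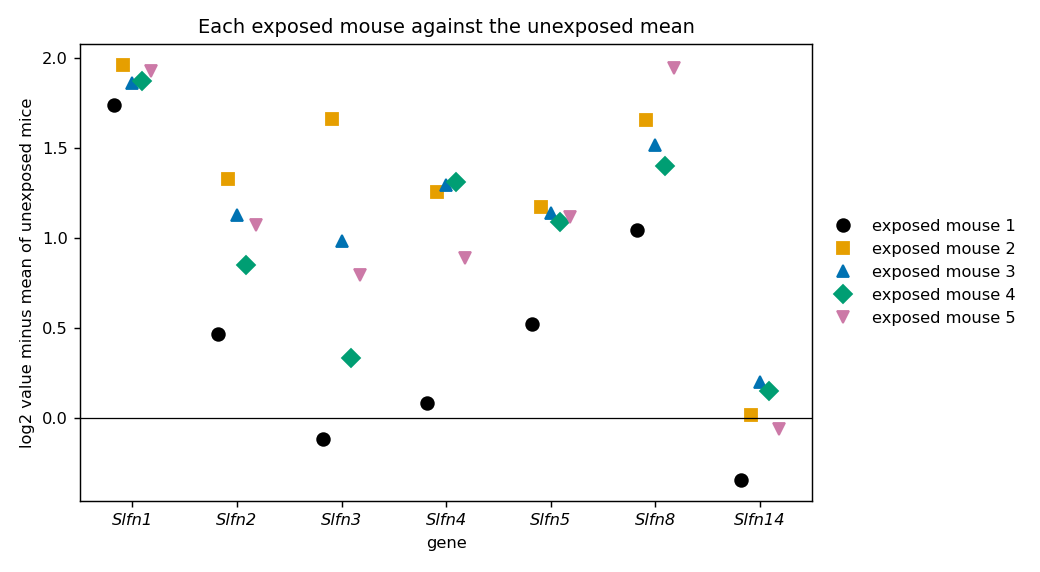
Log2 value of each exposed mouse minus the mean of the 5 unexposed mice (vertical axis) for each measured Schlafen gene (horizontal axis), with a symbol per mouse. Exposed mouse 1 is the lowest point for all 7 genes, and the 5 mice are closest together for Slfn1.

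The members did not share 1 profile over the 10 mice. With each gene set to its own unexposed mean, Slfn2 and Slfn5 were the closest pair, at a root mean square distance of 0.22 log2 units, and Slfn4 and Slfn5 came next at 0.28. Slfn1 and Slfn8 were 0.49 apart and Slfn1 and Slfn2 0.73 apart. For each called member the 3 closest genes outside the family were found in the same way, as a description over the 10 mice, and genes with a like difference between the groups come out close by construction. Slfn1 was closest to the cytokinesis gene Racgap1 (0.25), the histone gene H2bc12 (0.28) and the retinal dehydrogenase gene Aldh1a3 (0.29). Slfn2 was closest to the efflux transporter gene Abcb1b (0.19), Trim30a (0.19) and Cybb (0.19), which encodes the catalytic subunit of the phagocyte oxidase. Slfn4 was closest to the actin-bundling gene Fscn1 (0.18), the uridine phosphorylase gene Upp1 (0.19) and the prostaglandin transporter gene Slco2a1 (0.20). Slfn5 was closest to the ceramide glucosyltransferase gene Ugcg (0.13), the replication gene Cdc45 (0.17) and the centromere gene Mis18a (0.17). Slfn8 was closest to Gm4951 (0.19), the messenger RNA editing gene Apobec1 (0.22) and the DNA methylation cofactor gene Uhrf1 (0.23).

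Interferon response genes, which share their inducers with much of the Schlafen family, were mostly higher or without a call. Of 29 measured genes in the list, 11 rose, 1 fell and 17 did not pass, with a median log2 change of 0.39. The mean of the list among exposed mice was lowest in mouse 3 (6.86, against 6.93 in mouse 1). The count of rises was 7 without exposed mouse 4, and it was 17, with no fall, without exposed mice 1 and 3. The nucleic acid sensor Zbp1 rose from 6.67 ± 0.25 to 8.26 ± 0.28 (SD, n = 5 each), a log2 change of 1.59 (SE 0.16, limma adjusted p = 0.000133). Bst2, the tetherin gene, rose by 0.93 (SE 0.13, limma adjusted p = 0.00116) and Trim30a by 0.91 (SE 0.21, limma adjusted p = 0.0178). Ifit2, which binds RNA, rose by 0.79 (SE 0.19, limma adjusted p = 0.0219), and it lost its call without unexposed mouse 1, 3 or 4 (limma adjusted p 0.0139 to 0.0544 over the 10 mice left out). The fall was that of Oas2, a sensor of double-stranded RNA (-0.48, SE 0.11, limma adjusted p = 0.0173). Irf7, the regulator that amplifies type I interferon, changed by 0.58 (SE 0.18, limma adjusted p = 0.0614) and was called without exposed mouse 1 or unexposed mouse 2 (limma adjusted p 0.0341 to 0.137 over the 10 mice left out).

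Among 22 measured genes of interferon signalling itself, 3 rose, 0 fell and 19 did not pass, with a median of 0.027. Socs3, a feedback inhibitor of cytokine receptors, rose by 1.10 (SE 0.10, limma adjusted p = 7.85e-05). Stat2, a subunit of the factor that binds the response element, rose by 0.73 (SE 0.13, limma adjusted p = 0.00508). Ifngr1, a chain of the interferon gamma receptor, rose by 0.41 (SE 0.10, limma adjusted p = 0.0185), a call lost without unexposed mouse 1 (limma adjusted p 0.0156 to 0.0505 over the 10 mice left out). Irf9, which pairs with Stat2, changed by 0.28 (SE 0.19, limma adjusted p = 0.425), and Ifng by 0.041 (SE 0.16, limma adjusted p = 0.916), a value whose sign turned with array weights. Of 16 interferon gamma targets 6 rose and 0 fell, with a median of 0.32, led by the GTPase genes Iigp1 (1.70, SE 0.18, limma adjusted p = 0.000170) and Gbp5 (1.10, SE 0.23, limma adjusted p = 0.0109). The mean of the interferon gamma targets among exposed mice was lowest in mouse 1.

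Over the whole array 10.8% of genes were called in either direction, the background for the other lists close to known Schlafen functions. Of 12 genes for RNA cleavage and restriction factors, 1 rose, 1 fell and 10 did not pass (median 0.055). Samhd1, which depletes deoxynucleotides, rose by 1.16 (SE 0.13, limma adjusted p = 0.000243). The exonuclease gene Isg20 fell (-0.63, SE 0.16, limma adjusted p = 0.0284), a call that leaving out exposed mouse 2 or 4 ended, as did leaving out unexposed mouse 1 or 4 (limma adjusted p 0.0279 to 0.0693 over the 10 mice left out). Of 12 factors that keep lymphocytes at rest, 0 rose, 2 fell and 10 did not pass (median 0.013). The falls were those of the antiproliferative gene Tob1 (-0.50, limma adjusted p = 0.0111) and the ubiquitin ligase gene Peli1 (-0.46, limma adjusted p = 0.0299). The call of Peli1 ended when exposed mouse 2, 3 or 4 was left out, and likewise for unexposed mouse 1, 2 or 4 (limma adjusted p 0.0267 to 0.0728 over the 10 mice left out).

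Markers of cells known to express Schlafen genes moved with the groups to different degrees, and their part in the Schlafen differences was not tested. Of 14 monocyte and macrophage markers 9 rose and 0 fell, and their mean log2 value was 7.62 to 8.27 after exposure against 6.93 to 7.39 without it, lowest in exposed mouse 1 among the exposed. Cd68 rose by 1.79 (SE 0.32, limma adjusted p = 0.00418) and the mannose receptor gene Mrc1 by 1.41 (SE 0.27, limma adjusted p = 0.00667). Of 13 neutrophil markers 3 rose and 0 fell (means 5.22 to 5.61 and 4.76 to 4.95, lowest in exposed mouse 5 among the exposed). The rises numbered 2 when either mouse 2 or 4 of the exposed group, or mouse 1 of the unexposed group, was omitted and 5 without exposed mouse 5, and 1 marker fell without exposed mouse 3. Of 14 T cell markers 0 rose and 1 fell, the T cell receptor subunit gene Cd3g (-2.08, SE 0.47, limma adjusted p = 0.0167). The T cell means were 4.48 to 5.97 after exposure against 5.17 to 5.48 without it, with exposed mouse 1 lowest and exposed mouse 4 highest, and 4 markers fell when the latter was left out. All 12 cell division genes rose (means 7.37 to 8.23 and 5.78 to 5.89, lowest in exposed mouse 3 among the exposed). With no detection limit at hand, no marker can be called absent.

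**Figure D4:**
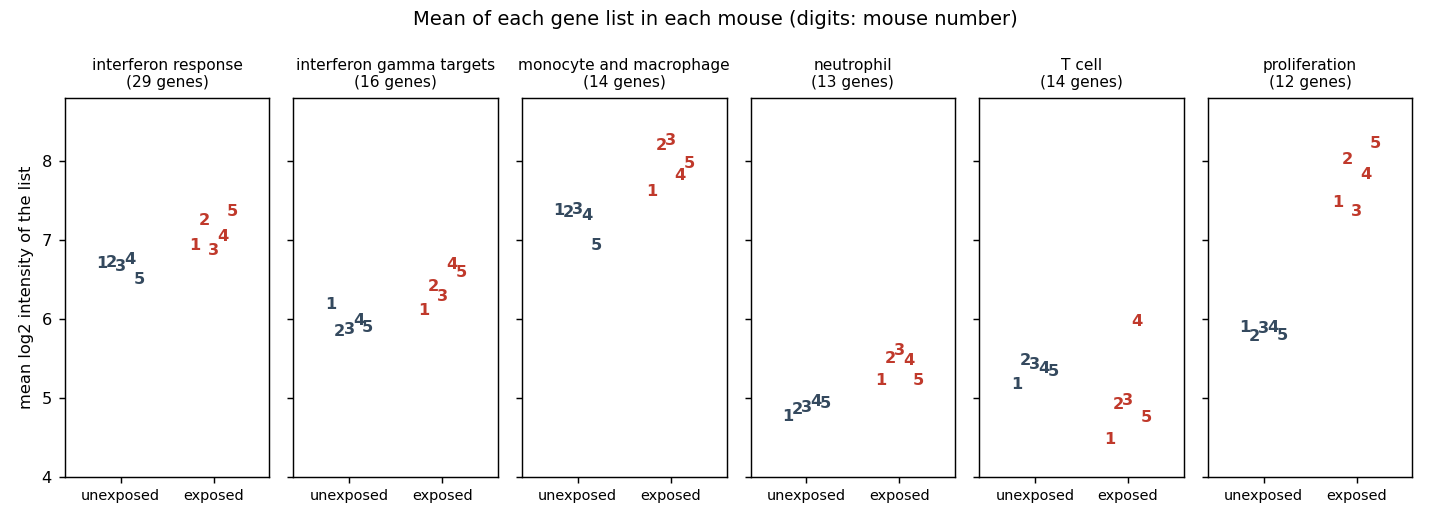
Mean log2 intensity of 6 gene lists (vertical axis) in unexposed and exposed mice, with each digit standing for the mouse of that number. The interferon response, monocyte and macrophage, neutrophil and proliferation means of all exposed mice lie above those of all unexposed mice, and the interferon gamma target and T cell means overlap.

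The remaining marker lists give the makeup of the tissue in counts of rises and falls among measured genes. There were 0 and 1 of 8 for NK cells, 0 and 0 of 6 for B cells, 0 and 3 of 7 for dendritic cells, 2 and 0 of 8 for platelets and 0 and 0 of 5 for erythroid cells. For the structural tissue there were 3 and 0 of 9 for fibroblasts, 1 and 0 of 8 for endothelium, 0 and 0 of 7 for smooth muscle and 0 and 2 of 8 for cartilage. For epithelium there were 0 and 0 of 6 general markers, 2 and 0 of 5 basal, 0 and 2 of 5 ciliated and 0 and 2 of 7 secretory markers. Several of these counts changed when 1 mouse was left out. The endothelial rise, of the angiopoietin receptor gene Tek, passed in only 2 of the 10 fits with 1 mouse left out, the fits that left out exposed mouse 1 and unexposed mouse 3 (limma adjusted p 0.0143 to 0.114); the endothelial rises numbered 3 without exposed mouse 1 and 2 without unexposed mouse 3. The NK cell fall, of the receptor gene Ncr1, ended in 7 such fits, omitting mouse 2, 3 or 5 of the exposed group and mouse 1, 3, 4 or 5 of the unexposed group (limma adjusted p 0.0147 to 0.0810), and 1 NK cell marker rose without exposed mouse 3. In cartilage the fall of the matrilin gene Matn3 ended in 6, omitting mouse 2, 4 or 5 of the exposed group and mouse 2, 3 or 5 of the unexposed group (limma adjusted p 0.0101 to 0.0652), and 5 markers fell without exposed mouse 3. Among dendritic cell markers, the log2 change of Cd209a, a C-type lectin gene, was -0.71 but -0.11 (limma adjusted p = 0.755) with its brightest probe set alone, which leaves 2 falls, and 2 were also left without unexposed mouse 2, 3 or 4. The fibroblast rises numbered 2 when mouse 4 of the exposed group, or mouse 1 or 5 of the unexposed group, was omitted and 4 without exposed mouse 1, 2 or 5. Of the ciliated markers 5 fell without exposed mouse 1, and of the secretory markers 5 without exposed mouse 3. The counts understate the ciliated and secretory differences. Ciliated means were 4.05 to 7.44 after exposure against 7.50 to 7.99 without it, and secretory means 5.44 to 10.6 against 10.9 to 11.1, without overlap. Basal means overlapped (7.87 to 9.26 and 7.70 to 8.00), and the median log2 change of the 5 basal markers was -0.12, with Krt5 not measured. The 2 basal rises were those of the keratin genes Krt14 (4.31, SE 0.25, limma adjusted p = 6.77e-06) and Krt17 (1.86, SE 0.29, limma adjusted p = 0.00208). The part of these differences in the Schlafen values was not tested. The fibroblast mean was 9.73 to 10.6 over the 10 mice, above the array medians as the label of mesenchyme asks. The general epithelial mean was also above them, at 8.27 to 9.26, lowest in exposed mouse 3, so that epithelial transcripts were present in what the labels call mesenchyme.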

How the data were processed

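Tracheal mesenchyme of 10 mice was measured on 1 Affymetrix array each. The authors deposited a log2 intensity for each probe set. Per the submitters' processing notes it came from RMA, run in Partek 6.6. That the scale is log2 was inferred, from the method and from values of 0.419 to 14.0. Other settings, and the annotation build, were not given in the sources used here. The table held 41345 probe sets, of which 23521 had 1 gene symbol in the platform annotation, 1814 had several and 16010 had none listed. Symbols were checked by gene ID against RefSeq (GRCm38.p6, 23328 found, 0 changed). Probe sets with 1 symbol were averaged into 22180 genes.

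Groups were compared over all 10 mice in R 4.3.3, by lmFit and eBayes of limma 3.58.1 (defaults, two-sided), with Benjamini-Hochberg adjustment over all genes, and called at an adjusted p under 0.05. The fit was also run on simulated data with independent noise for each gene and known changes, which checks the code and not the calls made here. The members and lists were chosen with earlier results of these data known. Named were all members, up to 4 called rises and 4 called falls with the largest changes of the interferon response and signalling lists, up to 2 of each for other lists (or, where none was called, up to 2 genes of smallest p), Irf7, Irf9 and Ifng, the 3 closest genes per called member and the 3 neighbours on each side. Slfn10-ps, Slfnl1, Gm20234, AI662270 and the probe sets shared between genes were added after their values were seen. Genes of the marker lists beyond those printed are given as counts. Alternatives were quantile normalization, array centring, a filter on dim genes, the brightest probe set, trend and robust moderation, array weights, a replicate block, each mouse left out, an adjusted p under 0.01 and a 2-fold minimum. Same-numbered mice are separate animals. Tables and figures were made in Python 3.11.15 with pandas 2.3.3, Biopython 1.88 and matplotlib 3.10.9.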

Additional observations from a re-analysis of the deposited data

Results flagged for a closer look

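Within each group of 5, the mouse at either end was compared with the rest for every named gene, and 6 of 152 such groups held a mouse far from the others (gap over range above 0.71, which chance gives in about 1 in 20 groups). Among the Schlafen genes, 1 of 14 groups did so. Slfn5 stood at 5.87 in exposed mouse 1 and at 6.44 to 6.52 in the other exposed mice. Outside the family, Tob1 was 6.40 in exposed mouse 2 (6.71 to 6.79 in the others) and the dendritic cell gene Cd209a was 5.81 in exposed mouse 1 (6.35 to 6.43). The epithelial cadherin gene Cdh1 was 7.64 in exposed mouse 3 (8.91 to 9.35). Among unexposed mice, Mrc1 was 6.56 in mouse 5 (7.63 to 7.95) and the airway secreted protein gene Bpifb1 was 12.0 in mouse 4 (11.7 to 11.8).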

How the results depend on the processing

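The 5 called Schlafen genes kept their direction under every alternative that tested them, and Slfn4 lost its call at an adjusted p under 0.01. For the Schlafen genes this is a description and no support, since they were chosen by the same contrast. The dim-gene filter left out Slfn3, Slfn4 and Slfn14. With the replicate block, 6 interferon response genes rose, and the 5 Schlafen calls stayed. Same-numbered mice did not deviate together (correlations -0.049 to 0.12 over genes, with 2 of 10 mice closest to their own number), so the block was not used elsewhere. With 1 mouse left out, 4 to 6 Schlafen genes and 7 to 15 interferon response genes were higher, 944 to 1432 genes were higher and 723 to 1407 lower (725 without unexposed mouse 1, 723 without unexposed mouse 4). Without exposed mice 1 and 3, 17 interferon response genes rose and 0 fell. At an adjusted p under 0.01, 619 genes were higher and 435 lower, with 3 interferon response genes higher and 0 lower. With a 2-fold minimum there were 411 higher and 349 lower, 3 Schlafen genes higher, and 1 interferon response gene higher and 0 lower. These last settings are stricter by construction, and for the rest the cause was not tested.

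Values near 0 changed sign, all without a call. Slfn14 became 0.019 with quantile normalization, 0.024 with centring and 0.037 without exposed mice 1 and 3 (-0.15 to 0.078 with 1 mouse left out). Slfnl1 became 0.015, 0.022 and 0.14 under the same settings and 0.047 with array weights (-0.13 to 0.057). Ap2b1 became 0.020 with centring and 6.2e-05 with array weights (-0.036 to 0.024), and Ifng -0.0017 with array weights (-0.077 to 0.15). With 1 mouse left out, Rasl10b was -0.0061 to 0.21, Unc45b -0.068 to 0.087, Cnn1 -0.20 to 0.020 and Actg2 -0.0048 to 0.27. Low values have no detection limit here, which bears on Slfn3, Slfn14 and the lower values of Slfn4. It also bears on the unexposed values of the probe set shared by Slfn9 and Slfn8, and on the lowest unexposed values of Slfn5 (5.01) and Slfn8 (4.91).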
